A study of Mus musculus with 7 samples.

Results

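The genes described here are enzymes, binding proteins and apolipoproteins of fatty acid and triglyceride metabolism, chosen by the spelling of their gene symbols from families such as Acad, Acot, Elovl, Fads, Agpat, Pnpla and Fabp and from a short list of single genes such as Me1 and Gpd1. Well-known genes of these pathways that the rule lists but that are not among the members, such as Lpl, Fasn and Lipe, are not analysed here. The rule used no measured value and found 41 of the 9294 genes tested. Of these, Gpatch1 and Gpatch2 only share the first letters of the Gpat family and encode proteins with a glycine-rich nucleic-acid-binding domain. Another, Fabp5l2, is annotated as a pseudogene by RefSeq. The remaining description therefore rests on 39 genes, Fabp5l2 included, and the values of the Gpatch pair are given once, at the end. No member was filtered for low signal, and none lay within 0.1 of an array's highest value, where the deposited values pile up.

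Fat depots of wild-type male mice of a C57 strain were compared with no treatment named, and the labels give no ages. Paracardial fat, the depot beside the heart, was measured on 4 Affymetrix arrays, and intra-abdominal fat on 3 arrays. Replicates are labelled biological, but nothing says that separate mice were used for each, so a p-value here reflects only how these samples vary, which may in part be technical. Values are on the deposited log2 scale, on which the median gene lay between 5.96 and 6.46 on each array, and differences are paracardial minus intra-abdominal. The median of the 39 lipid genes was 6.32, 6.59, 7.24 and 8.39 in paracardial fat, in array order, against 7.58, 8.46 and 8.74 in intra-abdominal fat. Paracardial array 4 and intra-abdominal array 3 shared a ceiling of 19.93, while the other 5 arrays ended at 19.81 to 19.84. The labels name no batch, and the arrays of each ceiling are treated below as a set.

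Adipocytes take up fatty acids released from lipoproteins, bind them in the cytosol, activate them with coenzyme A and esterify them in steps to glycerol 3-phosphate to build triglyceride. They also make and modify fatty acids through cytosolic NADPH, elongases and desaturases. On demand, patatin-like and hormone-sensitive lipases release the fatty acids again, and mitochondria oxidise some of them after carnitine-dependent import. Brown adipocytes, which express the uncoupling protein Ucp1, burn fatty acids for heat.

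More lipid genes had lower than higher values in paracardial fat. Of the 39 genes, 29 had a negative and 10 a positive difference, and the median difference was -0.55 against 0.13 over all 9294 genes. Over all genes 39.4% had a negative difference. The count of signs moved with the scaling, with 35 of the 41 members negative after quantile normalization. The median difference over all genes moved too, to 0.0057 after quantile normalization and -0.024 after median centring. The 39.4% therefore holds for the deposited scaling only. The lipid genes were read on the same 7 arrays, so their signs are not separate observations. Past an adjusted p of 0.05 in limma (Benjamini-Hochberg over all genes), 5 were lower in paracardial fat and 0 were higher. These were the desaturase genes Fads3 and Fads1, the triglyceride lipase gene Pnpla2, the phosphatidic acid synthesis gene Agpat2 and the beta-oxidation gene Hadh. Over all genes 9.16% passed, 2.91% lower and 6.25% higher, and 5 of 41 members made 12.2%. The split over all genes, 270 lower and 581 higher, depended on the scaling: it was 474 and 436 after quantile normalization, with 11 members lower, and 571 and 453 after cyclic loess, with 13 lower, and 0 members were higher in either. At an unadjusted p under 0.05 lay 14 of the 39 (35.9%), all with a negative difference, against 24.4% of all genes in either direction. The depots did not overlap in 12 of the 39, against 26.7% of all genes. Paracardial values were the lower ones in 11 of these, a pattern found in 8.78% of all genes, and the higher ones in 1, Acot8, a pattern found in 18.0%. Beside the 5 that passed, the 11 were Gpat4, Cpt2, Me1, Fabp4, Agpat1 and Acad12.

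The count of members that passed depended on single arrays. It was 1 (Fads3) without paracardial array 1, without paracardial array 2 or without intra-abdominal array 2. It was 3 without paracardial array 3, 2 without intra-abdominal array 1 or 3, and 9 without paracardial array 4. Without paracardial arrays 1 and 2 together none passed in limma, with 8 members at an unadjusted p under 0.05. Within the 5 arrays of the lower ceiling the differences of Fads3, Fads1, Pnpla2, Agpat2 and Hadh were -8.27, -2.59, -8.11, -3.08 and -3.21, with limma adjusted p of 0.016, 0.030, 0.053, 0.040 and 0.064. Between the arrays of the higher ceiling, 1 per depot and so without a test, they were -8.59, -1.23, -4.43, -2.90 and -2.92. Over all genes the count of lower calls was 62, 83, 128 and 71 without paracardial array 1, 2 or 3 or intra-abdominal array 2. It was 204 without paracardial array 4, where the count of members rose, against 270 with all arrays. Without intra-abdominal array 1 or 3, where the count of members fell, it stayed near that, at 274 and 264.

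Medians of adipocyte, thymocyte, thymic epithelial and endothelial markers differed between the depots without overlap on the same arrays. Adipocyte markers outside the lipid genes described here (10 measured of 13 listed, such as Lep, Plin1 and Cidec) had medians of 5.83, 5.68, 7.80 and 8.78 in paracardial fat (arrays 1 to 4) against 13.4, 14.0 and 15.4 in intra-abdominal fat, and 8 of the 10 were lower in paracardial fat. Thymocyte markers (5 of 11 measured, 2 of them higher in paracardial fat) ran the other way, with medians of 14.0, 12.8, 14.5 and 16.4 against 11.9, 6.87 and 5.55. Markers of thymic epithelium (5 of 8 measured, 4 of them higher in paracardial fat) had medians of 11.6 to 12.1 in paracardial and 5.48 to 8.19 in intra-abdominal fat. Endothelial markers (5 of 7 measured, 2 lower) had medians of 5.21 to 6.61 against 7.26 to 11.4. Medians of macrophage markers (6 of 8 measured, none past the threshold) overlapped, at 6.38 to 8.02 against 7.87 to 10.4. So did those of B cell markers (5 of 6 measured, none past the threshold), at 5.30 to 6.56 against 4.85 to 5.37. Mesothelial markers (4 of 6 measured, none past the threshold) lay at 5.69 to 5.97 against 5.68 to 6.11. The part of these cell types in the results below was not tested. In bulk tissue, fewer cells of a type and less RNA per cell cannot be told apart.

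**Figure D1:**
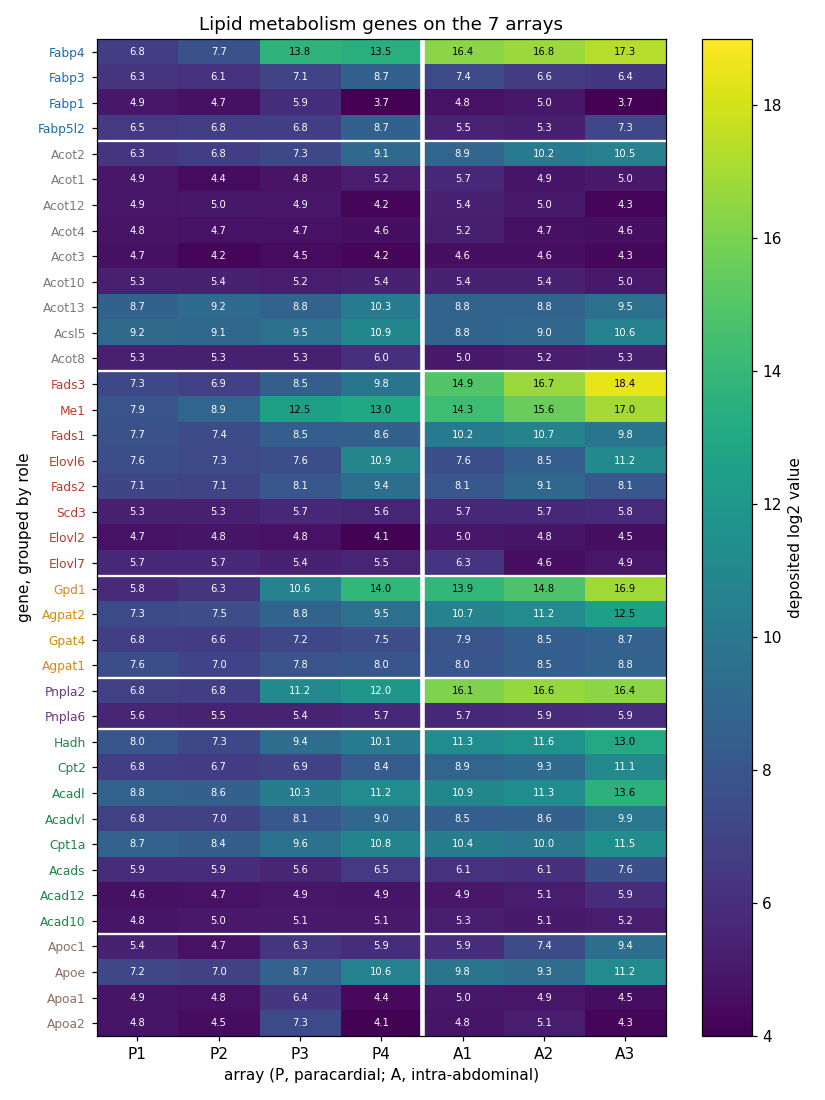
Deposited log2 value of each of the 39 lipid genes (rows, names coloured by role) on paracardial arrays 1 to 4 (P1 to P4) and intra-abdominal arrays 1 to 3 (A1 to A3), with cells coloured by value and the value printed in each. Fabp4, Fads3, Me1, Gpd1 and Pnpla2 are bright on all intra-abdominal arrays and between 5.78 and 8.88 on paracardial arrays 1 and 2, while many thioesterase genes stay near 5 on every array.

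Synthesis, elongation and desaturation genes held the largest difference among all members. Of 8 measured genes 2 were lower, Fads3 and Fads1, and 6 did not pass, with a median difference of -0.61. Fads3, a desaturase of the fatty acid desaturase family that acts on sphingoid bases, read 7.27, 6.87, 8.54 and 9.83 in paracardial fat, in array order as throughout, against 14.92, 16.72 and 18.42 in intra-abdominal fat. Every intra-abdominal array was far above the highest paracardial one. Its difference was -8.56 ± 1.01 (SE; 95% confidence interval -10.98 to -6.14, limma adjusted p = 0.0095), number 6 from the most negative of all genes tested. It passed whichever single array was left out, with adjusted p from 0.011 to 0.044.

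Fads1, which adds a late double bond in the making of arachidonic acid, read 7.71, 7.42, 8.45 and 8.62 in paracardial and 10.20, 10.71 and 9.84 in intra-abdominal fat. The depots did not overlap, and the arrays of a depot spanned 1.19 and 0.865. Its difference was -2.20 ± 0.38 (SE; limma adjusted p = 0.020), and it lost the call without paracardial array 1 (0.065), paracardial array 2 (0.051) or intra-abdominal array 2 (0.083). Me1, the cytosolic malic enzyme that supplies NADPH for fatty acid synthesis, read 7.90, 8.88, 12.53 and 12.96 against 14.31, 15.56 and 16.99. The depots did not overlap, but the paracardial arrays spanned 5.06, and the difference of -5.05 ± 1.43 did not pass (adjusted p = 0.079).

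The Fads genes are consecutive protein-coding genes on chromosome 19 in the RefSeq annotation, in the order Fads3, Fads2, Fads1. Fads2, which catalyses the first desaturation of the polyunsaturated pathway, read 7.15, 7.08, 8.06 and 9.39 in paracardial and 8.07, 9.05 and 8.06 in intra-abdominal fat, and the depots overlapped (-0.47 ± 0.62, adjusted p = 0.700). Within the 5 arrays that share the lower ceiling its difference was -1.13, and within paracardial array 4 and intra-abdominal array 3, which share the higher one, it was 1.33. Taken within each array, Fads3 minus Fads2 was 0.21 ± 0.32 (SD, n = 4) in paracardial and 8.30 ± 1.83 (SD, n = 3) in intra-abdominal fat. Fads2 minus Fads1 was -0.13 ± 0.61 in paracardial and -1.86 ± 0.25 in intra-abdominal fat. In an exact permutation test on the absolute difference of means over all 35 splits of the arrays, each contrast gave p = 0.0286, the smallest that 4 arrays against 3 allow, and 0.1 after Benjamini-Hochberg adjustment over the 7 pairs of neighbouring members. Doubling the smaller tail, the form run first, gave an exact p of 0.0571 and 0.2 after adjustment. No pair passed in either form, and both the pairs and the form printed first were chosen after values were seen.

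The sequences below are windows of 300 bases around the annotated start, mostly upstream of it, of the members that passed and have an entry in the RefSeq promoter table (GRCm38.p6), with Fads2 beside Fads3 because the neighbours differ so much in value. Each runs 5′ to 3′ on the strand of its gene, and capitals mark a CCAAT box on either strand.
Fads3 (chr19:10041298-10041597, plus strand): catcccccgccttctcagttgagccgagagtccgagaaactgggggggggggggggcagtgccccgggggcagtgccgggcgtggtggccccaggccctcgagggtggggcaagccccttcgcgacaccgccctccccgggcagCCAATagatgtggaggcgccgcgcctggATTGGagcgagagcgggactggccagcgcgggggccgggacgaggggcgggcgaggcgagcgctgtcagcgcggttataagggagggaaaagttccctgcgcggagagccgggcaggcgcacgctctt
Fads2 (chr19:10101454-10101753, minus strand): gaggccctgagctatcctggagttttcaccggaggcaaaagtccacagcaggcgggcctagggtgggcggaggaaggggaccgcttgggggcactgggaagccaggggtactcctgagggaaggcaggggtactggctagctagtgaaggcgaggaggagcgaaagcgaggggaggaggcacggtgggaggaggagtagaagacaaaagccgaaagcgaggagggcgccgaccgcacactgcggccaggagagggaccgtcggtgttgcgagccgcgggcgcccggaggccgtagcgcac
Pnpla2 (chr7:141454938-141455237, plus strand): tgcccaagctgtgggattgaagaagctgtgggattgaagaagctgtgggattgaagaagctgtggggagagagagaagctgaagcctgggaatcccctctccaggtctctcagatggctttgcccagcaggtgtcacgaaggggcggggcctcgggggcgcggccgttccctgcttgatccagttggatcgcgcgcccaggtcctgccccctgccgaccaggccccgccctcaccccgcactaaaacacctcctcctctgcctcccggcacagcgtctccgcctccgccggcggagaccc
Agpat2 (chr2:26604368-26604667, minus strand): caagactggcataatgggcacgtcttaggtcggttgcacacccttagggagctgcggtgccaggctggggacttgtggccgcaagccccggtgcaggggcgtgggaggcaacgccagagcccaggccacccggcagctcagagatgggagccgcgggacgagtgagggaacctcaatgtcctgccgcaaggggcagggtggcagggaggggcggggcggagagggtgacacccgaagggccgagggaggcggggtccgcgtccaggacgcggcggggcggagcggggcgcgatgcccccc
Hadh (chr3:131272052-131272351, minus strand): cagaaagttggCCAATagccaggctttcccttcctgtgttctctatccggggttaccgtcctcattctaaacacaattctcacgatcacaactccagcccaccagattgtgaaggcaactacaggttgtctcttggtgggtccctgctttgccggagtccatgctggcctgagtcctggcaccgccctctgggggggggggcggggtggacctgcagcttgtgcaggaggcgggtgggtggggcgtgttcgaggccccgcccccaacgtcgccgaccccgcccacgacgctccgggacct
The Fads3 window holds 2 CCAAT boxes, one on each strand, that of Hadh holds 1, and those of Fads2, Pnpla2 and Agpat2 hold none.

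Of the 39 genes, 32 matched the promoter table. These 32 have 41 windows, and a gene was counted where any of its windows matched, for the members and for all 27025 genes of the table alike. A CCAAT box (CCAAT, both strands) was found in 13 of the 32 genes (40.6%), against 41.1% of all genes. Counted by window it was in 15 of 41 (36.6%), against 37.4% of all 32851 windows. The direct repeat read by PPAR and RXR dimers, searched as AGGTCA repeated after any base on both strands, was in none of the members and in 0.0481% of all genes. In a looser form made of AGGNCA, which contains the first, it was found in 1 member, Fabp1, against 0.451% of all genes. The palindrome TTGCNNAA was found in 4 (12.5%) against 12.2%, the sterol element TCACNCCAC in none against 1.44%, and the E-box CACGTG in 1, Acot4, against 8.09%. These shares describe letters in a short window and say nothing about the factors.

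Elovl6, which lengthens palmitate, stood apart on one array of each depot, with 7.57, 7.31, 7.58 and 10.85 in paracardial and 7.58, 8.46 and 11.16 in intra-abdominal fat. Paracardial array 4 and intra-abdominal array 3 were high, the depots overlapped, and the difference was -0.74 ± 1.17 (adjusted p = 0.756). Scd3, a stearoyl-CoA desaturase whose probe could share signal with its close paralogs, lay between 5.29 and 5.81 on all arrays (-0.27 ± 0.18). The remaining elongase genes were dim, with Elovl2 at 4.11 to 4.99 (-0.18 ± 0.25) and Elovl7 at 4.63 to 6.34 (0.27 ± 0.42), and neither passed.

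**Figure D2:**
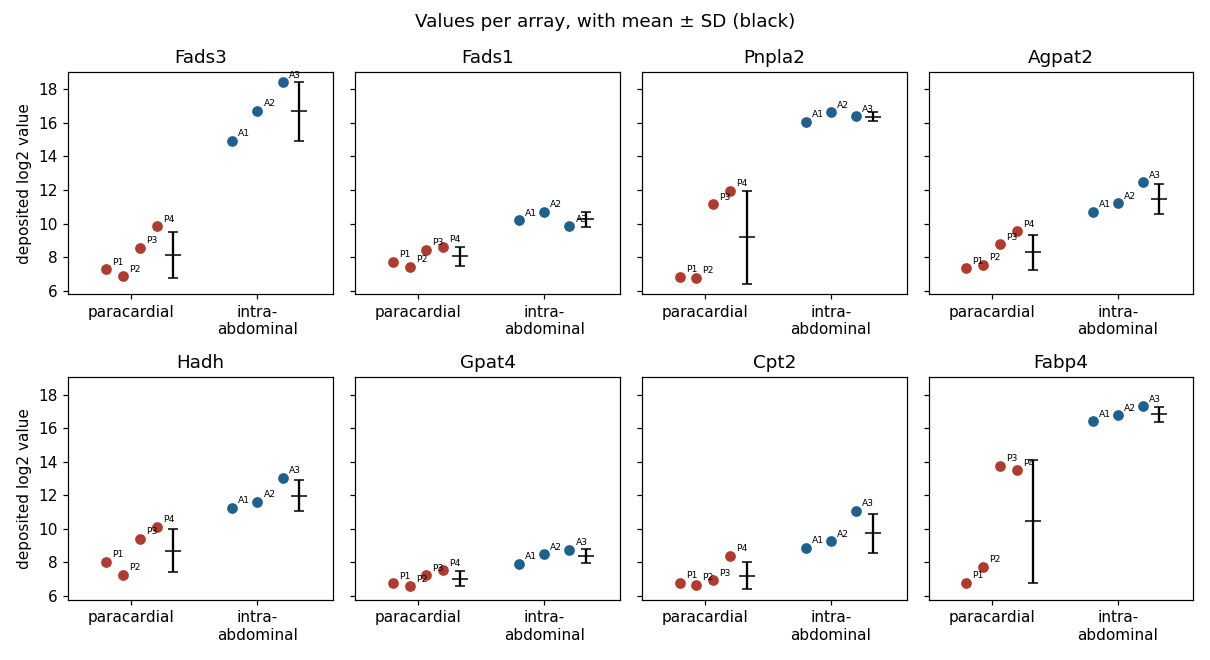
Deposited log2 values of 8 lipid genes on each array, labelled P1 to P4 for paracardial and A1 to A3 for intra-abdominal fat, with the depot mean ± SD in black (n = 4 and n = 3). All 8 are among the 11 lipid genes whose paracardial values all lie below the intra-abdominal ones, so the lack of overlap follows from the choice. That pattern is found in 8.78% of all genes, and the depots overlap in 27 of the 39 lipid genes. The paracardial arrays of Pnpla2 and Fabp4 spread far more widely than the intra-abdominal ones.

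All 4 measured genes of glycerolipid assembly had negative differences, as did 39.4% of all genes on the deposited scaling. Their median was -2.26, and 1 passed. Agpat2, which turns lysophosphatidic acid into phosphatidic acid and whose loss causes lipodystrophy, read 7.35, 7.53, 8.77 and 9.55 in paracardial and 10.70, 11.22 and 12.45 in intra-abdominal fat. The depots did not overlap, and the difference was -3.16 ± 0.67 (limma adjusted p = 0.035). With single arrays removed, its call survived only the removal of paracardial array 4, and the adjusted p reached 0.115 without intra-abdominal array 2.

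Gpat4, which carries out the preceding step from glycerol 3-phosphate, read 6.75, 6.59, 7.24 and 7.54 against 7.91, 8.49 and 8.74. Its difference of -1.35 ± 0.32 missed the threshold narrowly (adjusted p = 0.0502), and with single arrays removed it passed only without paracardial array 4 (0.046), the others giving 0.052 to 0.172. Agpat1, the paralog of Agpat2, read 7.60, 7.03, 7.81 and 7.99 against 7.996, 8.50 and 8.77, nearly touching at paracardial array 4 and intra-abdominal array 1 (-0.82 ± 0.31, adjusted p = 0.162). Gpd1, which makes glycerol 3-phosphate from a glycolysis intermediate, had the widest paracardial spread of any lipid gene here. It read 5.78, 6.32, 10.65 and 13.96 in paracardial and 13.90, 14.82 and 16.88 in intra-abdominal fat, so paracardial array 4 reached the lowest intra-abdominal one. The difference was -6.03 ± 2.08 (adjusted p = 0.132), and it moved with the arrays used. It was -7.62 without paracardial array 4 (limma adjusted p = 0.048), -4.89 without array 1 (0.249), -5.07 without array 2 (0.257) and -2.90 without both of the latter (0.368).

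Lipolysis was represented by Pnpla2, the adipose triglyceride lipase that takes the first fatty acid off stored triglyceride, and by Pnpla6, a lysophospholipase. Pnpla2 read 6.82, 6.77, 11.16 and 11.96 in paracardial fat against 16.08, 16.64 and 16.38 in intra-abdominal fat. Intra-abdominal values agreed within 0.56 while the paracardial ones spanned 5.18. Its difference was -7.19 ± 1.43, with a 95% confidence interval of -10.60 to -3.78 (limma adjusted p = 0.029). It passed without paracardial array 3 (0.049) or 4 (0.032) and not when any other single array was removed, the adjusted p reaching 0.114 without intra-abdominal array 2. Pnpla6 lay between 5.44 and 5.93 on all arrays (-0.29 ± 0.17, adjusted p = 0.367).

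All 8 measured genes of mitochondrial fatty acid oxidation had negative differences, as did 39.4% of all genes on the deposited scaling. Their median was -1.25, and 1 passed. Hadh, the short-chain hydroxyacyl-CoA dehydrogenase, read 8.04, 7.26, 9.41 and 10.11 in paracardial and 11.27, 11.62 and 13.03 in intra-abdominal fat. The depots did not overlap, the difference was -3.27 ± 0.78, and the limma adjusted p of 0.0499 was the closest to the threshold of the 5 calls. With single arrays removed, it survived only the removal of paracardial array 4.

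Carnitine palmitoyltransferases carry the fatty acids into mitochondria, Cpt1a at the outer and Cpt2 at the inner membrane. Cpt2 read 6.77, 6.67, 6.94 and 8.39 against 8.88, 9.27 and 11.07, with no overlap (-2.55 ± 0.66, adjusted p = 0.061). Cpt1a read 8.72, 8.44, 9.63 and 10.79 against 10.36, 10.001 and 11.45, with paracardial array 4 inside the intra-abdominal range (-1.21 ± 0.64, adjusted p = 0.319). The acyl-CoA dehydrogenases differ by the chain length they oxidise. Acadl, for long chains, read 8.79, 8.61, 10.29 and 11.22 against 10.89, 11.28 and 13.61 (-2.20 ± 0.90, adjusted p = 0.194). Acadvl, for very long chains, gave -1.29 ± 0.63 (0.272) and Acads, for short chains, -0.66 ± 0.44 (0.433). The remaining family members Acad12 and Acad10, neighbours on chromosome 5, were dim (4.65 to 5.93 and 4.85 to 5.26), with differences of -0.55 ± 0.27 and -0.18 ± 0.16, neither past the threshold.

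Binding and activation genes did not share a direction. None of 4 binding genes passed, with a median of 0.29, and none of 9 synthetase and thioesterase genes, with a median of -0.13. Fabp4, the fatty acid-binding protein of adipocytes, macrophages and capillary endothelium, read 6.80, 7.74, 13.75 and 13.48 in paracardial and 16.40, 16.76 and 17.31 in intra-abdominal fat. The paracardial arrays fell far apart, spanning 6.95 against 0.91 in intra-abdominal fat, and the difference of -6.38 ± 1.90 did not pass (adjusted p = 0.092). Fabp3, the form of heart and skeletal muscle that brown fat also makes, read 6.32, 6.13, 7.07 and 8.68 against 7.37, 6.63 and 6.42, highest on paracardial array 4 (0.25 ± 0.65, turning to -0.046 after quantile normalization). The pseudogene Fabp5l2, whose probe may read its parent gene, read 6.51, 6.78, 6.80 and 8.68 against 5.47, 5.25 and 7.25 (1.20 ± 0.70, adjusted p = 0.366). It was the only lipid gene here that passed as higher in any alternative, with limma adjusted p = 0.0070 when arrays were blocked by ceiling, 0.022 within the 5 lower-ceiling arrays and 0.0087 under array weights. In the same order, 1081, 620 and 2235 of all genes passed as higher, against 581 in the unblocked, unweighted fit of all 7 arrays.

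Thioesterases release free fatty acids from coenzyme A. Acot2, the mitochondrial one, read 6.28, 6.77, 7.28 and 9.12 against 8.88, 10.16 and 10.50 (-2.49 ± 0.74, adjusted p = 0.093). Its cytosolic near-copy Acot1, next to it on chromosome 12, lay at 4.41 to 5.72 (-0.38 ± 0.29), and probes of such similar genes could share signal. Acot2 minus Acot1 within each array was 2.53 ± 1.04 (SD, n = 4) in paracardial and 4.65 ± 1.29 (SD, n = 3) in intra-abdominal fat, exact permutation p = 0.0857 (0.2 after adjustment over the 7 pairs). Following them in the cluster, Acot4 and Acot3, both peroxisomal, lay at 4.19 to 5.23, with differences of -0.13 ± 0.22 and -0.13 ± 0.20. Peroxisomal Acot8 read 5.33, 5.31, 5.31 and 6.01 against 5.03, 5.22 and 5.29, with every paracardial array above but nearly touching (0.31 ± 0.24, adjusted p = 0.495). Acot12, which cleaves acetyl-CoA, gave -0.14 ± 0.33 and Acot10 gave 0.04 ± 0.18, turning to -0.061 after quantile normalization, with every value of either between 4.23 and 5.41.

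The brighter members Acsl5 and Acot13 of the activation group did not pass either. Acsl5, an acyl-CoA synthetase, read 9.18, 9.08, 9.45 and 10.87 against 8.77, 8.98 and 10.56, high on paracardial array 4 and intra-abdominal array 3 (0.21 ± 0.61, 95% confidence interval -1.24 to 1.67). Acot13, a thioesterase associated with mitochondria, read 8.68, 9.23, 8.77 and 10.26 against 8.76, 8.77 and 9.54 (0.21 ± 0.44). After quantile normalization these differences turned to -0.28 and -0.18, so neither has a settled direction.

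**Figure D3:**
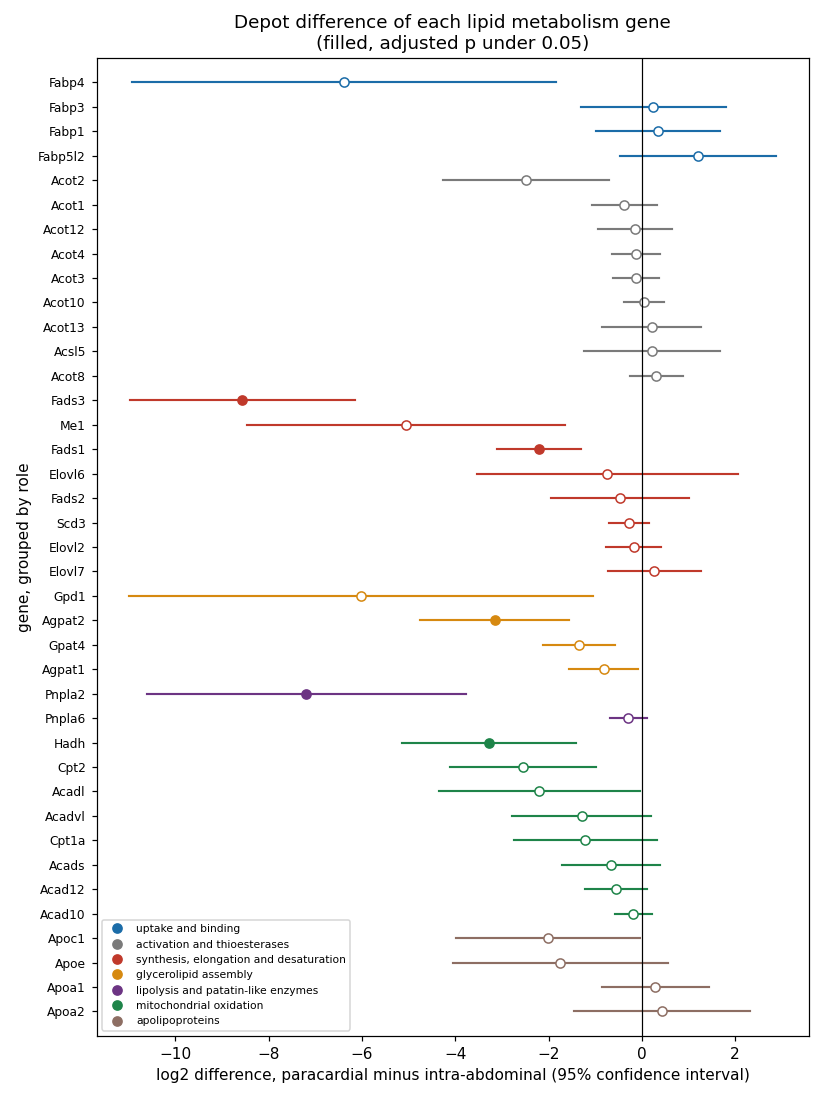
Depot difference of each of the 39 lipid genes on the log2 scale with its 95% confidence interval from limma (horizontal axis), grouped and coloured by role. Filled points are the 5 genes past an adjusted p of 0.05 (Fads3, Fads1, Pnpla2, Agpat2 and Hadh), and every gene of mitochondrial oxidation and glycerolipid assembly lies left of 0.

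Apolipoproteins coat lipoprotein particles, and none of the 4 measured passed. Apoe, made by adipocytes and macrophages as well as liver, read 7.19, 6.98, 8.71 and 10.62 in paracardial and 9.81, 9.35 and 11.23 in intra-abdominal fat (-1.75 ± 0.97, adjusted p = 0.335). Its neighbour on chromosome 7, Apoc1, an inhibitor of lipoprotein lipase, read 5.35, 4.71, 6.26 and 5.88 against 5.89, 7.43 and 9.40 (-2.02 ± 0.83, adjusted p = 0.194). Both overlapped between the depots. Apoa1 and Apoa2, the main proteins of high-density lipoprotein made in liver and, for Apoa1, intestine, were dim except on one array. Apoa1 read 4.88, 4.76, 6.36 and 4.37 against 4.98, 4.88 and 4.55 (0.29 ± 0.48), and Apoa2 read 4.84, 4.47, 7.34 and 4.08 against 4.84, 5.14 and 4.27 (0.43 ± 0.79). The liver fatty acid-binding protein Fabp1 was also highest there, at 5.93 on paracardial array 3 against 3.74 to 4.97 on the others (0.34 ± 0.56).

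Hepatocyte markers (4 of 6 measured, none past the threshold) had a median of 11.7 on the same array, against 4.70 to 5.70 on the other paracardial and 6.12 to 7.28 on the intra-abdominal arrays. Albumin (Alb) read 14.37 on paracardial array 3, against 4.77 to 6.25 on the other paracardial and 6.83 to 8.73 on the intra-abdominal arrays. The secreted liver proteins Ahsg and Fgb read 8.96 and 7.01 there, and at most 5.84 and 5.001 elsewhere. The remaining member of the list, the cytochrome P450 gene Cyp2e1, went another way, with 6.56, 7.45, 15.77 and 12.80 in paracardial fat against 18.85, 18.97 and 18.98 in intra-abdominal fat, and it enters the list medians. Without paracardial array 3 the differences of Apoa1, Apoa2 and Fabp1 turned to -0.14, -0.29 and -0.028. The part of hepatocyte RNA in these values was not tested.

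Paracardial array 4 was the brightest paracardial array for 25 of the 39 lipid genes, and intra-abdominal array 3 the brightest intra-abdominal one for 24. The same counts were not made over all genes, so these say nothing particular to lipid genes. The median of all genes was also highest on paracardial array 4, at 6.46 against 6.01 to 6.23 on the other paracardial arrays. On intra-abdominal arrays 1 to 3 it was 6.09, 5.96 and 6.05. Thermogenic markers (6 of 13 measured, none past the threshold) had a median of 7.55 on paracardial array 4, against 5.21 to 5.93 on the other paracardial and 5.09 to 6.37 on the intra-abdominal arrays. Ucp1 read 13.92 on paracardial array 4 and 4.36 to 6.14 on the other 6 arrays. Cidea, Cox7a1 and Cox8b were also highest of all arrays on paracardial array 4, at 9.38, 8.24 and 6.86. Otop1 and Kcnk3 were not. Otop1 read 6.36 there and 6.999 on intra-abdominal array 3. Kcnk3 read 6.05 there, against 6.24 on paracardial array 3 and 7.67 on intra-abdominal array 3. Elovl6, Fabp3, Acot2, Acsl5 and Acot13 were each highest on paracardial array 4 among the paracardial ones. Its part in their values was not tested.

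**Figure D4:**
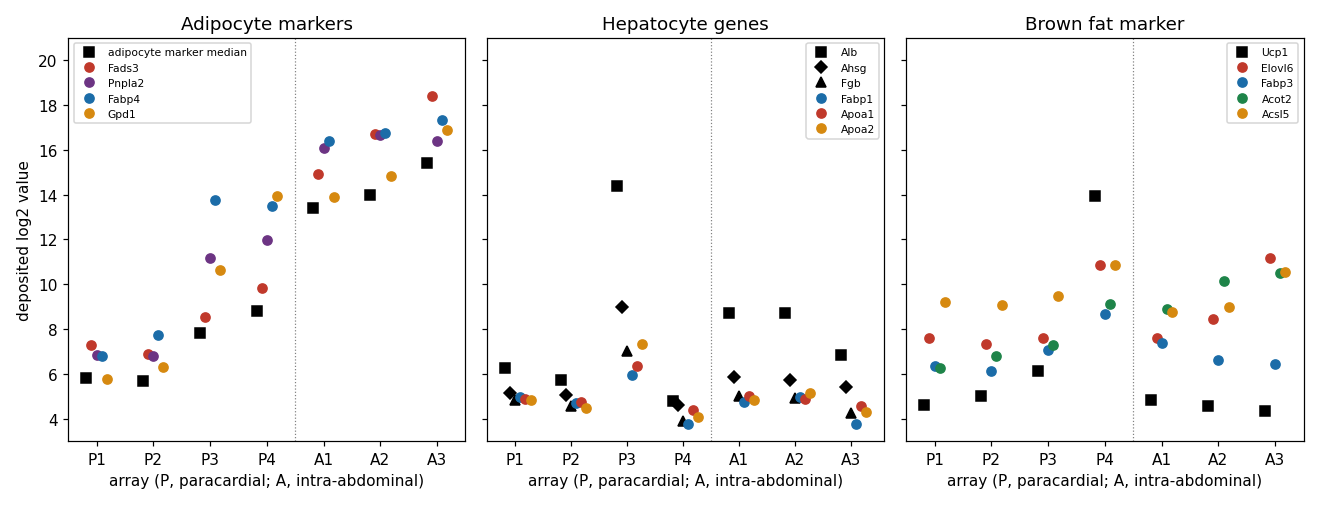
Deposited log2 values on each array (P1 to P4 paracardial, A1 to A3 intra-abdominal) of marker genes in black and lipid genes in colour, for adipocyte markers (median of 10 genes), hepatocyte genes and the brown fat marker Ucp1. Like the adipocyte median, Fads3, Pnpla2 and Fabp4 are lower on every paracardial array than on any intra-abdominal one. Gpd1 is not, with 13.96 on P4 against 13.90 on A1. Fabp4 is at 13.75 and 13.48 on P3 and P4, where the adipocyte median is 7.80 and 8.78. Fabp1, Apoa1 and Apoa2 are highest on P3 with Alb, and Ucp1 is at 13.92 on P4 alone.

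Partner genes of the same pathways, taken from lists, were lower in paracardial fat or did not pass. Of 11 lipid droplet proteins 5 were lower (median -2.49), led by the coat protein Plin4 (-8.13 ± 0.81, limma adjusted p = 0.0082), the fusion protein Cidec (-7.61 ± 1.51, 0.029) and the glycerol channel Aqp7 (-7.35 ± 0.85, 0.0090). Of 5 genes of glycerol and citrate supply 2 were lower, the glyceroneogenic enzyme Pck1 (-6.92 ± 1.04, 0.015) and the NADPH-producing isocitrate dehydrogenase Idh1 (-2.42 ± 0.44, 0.023). Of 5 lipid transcription regulators 2 were lower, Pparg, the master regulator of adipocyte genes (-4.98 ± 0.79, 0.018), and the carbohydrate-responsive Mlxipl (-1.19 ± 0.22, 0.024). Slc27a1, the only fatty acid transport protein measured, was lower (-4.23 ± 0.45, 0.0082), as was 1 of 5 lipoprotein partners, the lipoprotein lipase inhibitor Angptl4 (-4.87 ± 0.90, 0.024). All 11 measured oxidation partners had negative differences (median -1.05), as did 39.4% of all genes on the deposited scaling. None of these partners passed, the nearest being the peroxisomal enzyme Ehhadh (-1.90 ± 0.46, 0.0503). Over all genes 2.91% passed as lower. Plin4, Cidec, Aqp7 and Pparg are also among the adipocyte markers above, as is Plin1, another of the 5 lower lipid droplet genes. The lists are therefore not separate from those markers.

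The Gpatch pair, members by spelling alone, did not pass. Gpatch1 lay at 6.22 to 7.45 (0.12 ± 0.35, adjusted p = 0.873) and Gpatch2 at 5.26 to 5.41 (0.04 ± 0.15, 0.899), and both turned below 0 under median centring of the arrays (-0.035 and -0.11).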

How the data were processed

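RNA of both depots was hybridised to Affymetrix arrays, per the labels. The deposited values are log2 expression, 1 for each probe and array. The submitters' processing notes name RMA and the Affymetrix Expression Console, and the genome build and versions are not stated in the labels used. With 7 arrays, precision is limited by their number.

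Of 11949 probes, 9352 had 1 gene symbol in the platform annotation, 522 several and 2075 none. Symbols were updated through Entrez identifiers (RefSeq, GRCm38.p6), and the probe with the highest mean was kept for each gene, leaving 9294 genes. Each member had 1 probe, and 3 further probes with several symbols, one of them a member's, were left out. The depot difference was fitted over all 7 arrays in limma 3.58.1 (R 4.3.3; lmFit, eBayes, two-sided), with 5 residual and 1.68 prior degrees of freedom, and p-values were adjusted by Benjamini-Hochberg over all genes, threshold 0.05. Neighbouring members were compared by exact permutation over the arrays.

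The members, lists and roles were chosen with earlier results of these data known. The naming rule took every member past the threshold, the largest of each role group without one, a list of well-known genes where measured, and members that stood apart on paracardial array 4, 21 in all; the other 20 were named after their values were seen, as were Ehhadh, Alb, Ahsg, Fgb, Cyp2e1, the motifs, the neighbouring pairs and the promoters printed. Other partner genes were named up to 3 per list, apart from Plin1, named because it is also an adipocyte marker. Alternatives were dimness filters, 3 normalizations, variance models, array weights, blocks, probe and symbol rules, and arrays left out. The fit was first tested on simulated data with independent normal noise, which hold no differences shared by a whole array. It recovered 42% of planted differences of 2 and 82% of those of 4, with 4 false calls. Many true differences of about 2 could thus be missed. Tables and figures were made in Python 3.11.15 with matplotlib 3.10.9.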

Additional observations from a re-analysis of the deposited data

Results flagged for a closer look

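In 8 of the 41 members, 1 paracardial array lay far from the other 3 relative to the range of the 4 (Dixon's test at its 95% critical value), and in all 8 it was array 4. Chance flags about 1 in 20 groups if values are normal and untied, and the 3 intra-abdominal arrays are too few for this test. The test was run on the members only. The share of all genes that it flags is not known, so the count says nothing particular to the members. Some flagged members had tied values, such as Gpatch2 at 5.31 on paracardial arrays 1 to 3. All 41 members were read on the same 4 paracardial arrays, so the 8 flags are not separate draws to set against that rate. Array 4 was highest for Elovl6 (10.85), Fabp5l2 (8.68), Cpt2 (8.39), Acot8 (6.01), Gpatch1 (7.45) and Gpatch2 (5.41), and lowest for Acot12 (4.23) and Elovl2 (4.11). In 7 of the 8, intra-abdominal array 3 was the extreme intra-abdominal array on the same side, Gpatch2 being the exception. Both of these arrays have a ceiling of 19.93, against 19.81 to 19.84 elsewhere. Their 5th percentiles over all genes are 4.01 and 3.99, and those of the remaining 5 arrays lie at 4.42 to 4.48.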

How the results depend on the processing

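Fads3 passed in 19 of 21 alternatives and kept its sign in all 21, with differences from -9.45 to -7.50. Some alternatives could not move its difference of -8.56. These were the probe and symbol rules, as no member had several probes or an updated symbol. The dimness filters, the fit without genes at the ceiling and the other variance model also left it as it was. Fads3 missed the threshold with the replicate number as a block (limma adjusted p = 0.052) and without paracardial arrays 1 and 2 (0.097). The 5 members that passed were joined by others under some settings, and the split over all genes moved with the scaling. Members lower in paracardial fat, with lower and higher calls over all genes, numbered 11 (474 and 436) after quantile normalization, 13 (571 and 453) after cyclic loess, 21 (1379 and 2235) with array weights, whose estimation did not converge fully, and 10 (573 and 1081) when arrays were blocked by ceiling. Median centring gave 8 members and moved the median difference of all genes from 0.13 to -0.024. Without paracardial arrays 1 and 2, 0 members, 1 lower gene and 0 higher genes passed in limma (1751 genes at an unadjusted p under 0.05). Leaving out each array in turn gave 1 to 9 lower members, 62 to 274 lower and 114 to 569 higher genes. One member, Fabp5l2, passed as higher under array weights, the ceiling block and the 5 arrays of the lower ceiling. The replicate number as a block gave 0 lower and 0 higher members and 0 lower and 0 higher genes in limma, with 2134 genes and 17 members at an unadjusted p under 0.05; it leaves paracardial array 4 without a partner. Same-numbered arrays correlated at 0.048, 0.047 and -0.50 in their deviations across genes, and none of the 3 intra-abdominal arrays correlated best with its own number. Differences between whole arrays also move these correlations: intra-abdominal array 3 correlated best with paracardial array 4, at 0.39. They therefore cannot settle whether same-numbered samples came from the same mouse.

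Differences that turned sign all belonged to members that did not pass. After quantile normalization these were Acot10 (-0.061), Acot13 (-0.18), Acsl5 (-0.28), Fabp3 (-0.046), Gpatch1 (-0.042) and Gpatch2 (-0.047). Median centring turned Acot10 (-0.12), Gpatch1 (-0.035) and Gpatch2 (-0.11), and cyclic loess Acot10 (-0.0023), Acot13 (-0.21), Acsl5 (-0.29), Gpatch1 (-0.010) and Gpatch2 (-0.00031). Array weights turned Acot10 (-0.057), Acot4 (0.015), Apoa2 (-0.073) and Fabp3 (-0.28), and the 5 arrays of the lower ceiling Acot10 (-0.095) and Fabp3 (-0.49). The replicate block turned Acot12 (0.027), Acot13 (-0.13), Acsl5 (-0.20), Fabp3 (-0.30) and Gpatch1 (-0.14). Without paracardial arrays 1 and 2 Elovl6 (0.15) and Fads2 (0.33) turned. Leaving out each array in turn gave ranges that cross 0 for Acot10 (-0.076 to 0.10), Acot12 (-0.46 to 0.098), Acot13 (-0.13 to 0.47), Acot4 (-0.25 to 0.069), Acsl5 (-0.20 to 0.77), Apoa1 (-0.14 to 0.53), Apoa2 (-0.29 to 0.80), Elovl6 (-1.58 to 0.31), Elovl7 (-0.066 to 0.79), Fabp1 (-0.031 to 0.70), Fabp3 (-0.30 to 0.55) and Gpatch1 (-0.14 to 0.35). The cause was not tested.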
